A study of Mus musculus with 56 samples.

Results

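Livers taken 8 h after a single dose of HTS-3, a locked nucleic acid (LNA) gapmer that the sample labels call severely toxic, were compared with livers of vehicle-treated mice of the same time. The comparison holds 6 of the 56 arrays of the series, 3 mice a group, chosen by the sample titles. All 45101 probe sets of each array were read as log2 of the deposited intensity, which left 9137 genes with 1 probe set each that passed a filter on dim signals. The mice were male CD-1 animals, an outbred stock, 6 to 8 weeks old at the start. They received HTS-3 at 25 mg/kg by 1 subcutaneous injection, or its carrier, Dulbecco's phosphate buffered saline (DPBS), at 10 mL/kg. Beside them stand mice given TS-2, labelled toxic (4 arrays), or NTS-1, labelled non-toxic (3 arrays), at that dose and time, and other mice given HTS-3 (4 arrays) or vehicle (3 arrays) and taken at 16 h. Of 10 mice dosed in each group and time, the study chose the 3 or 4 livers that ranked highest for minor hepatic hypertrophy, so the arrays do not sample all dosed mice. Animals given HTS-3 for a 72 h time point had died or were sacrificed as moribund. The sources used here give neither the targets nor the base sequences of the 3 gapmers. No label says which mice shared a cage or a processing day, and p-values measure the spread between single mice.

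A gapmer is a short single-stranded oligonucleotide with a DNA centre between wings of modified nucleotides, here LNA, which bind RNA tightly. Once paired with an RNA in the cell, the DNA stretch allows RNase H to cut that RNA, which lowers its level. The liver takes up much of an injected gapmer, both in hepatocytes and in the sinusoidal endothelium and resident macrophages (Kupffer cells), and some LNA sequences injure the liver while others do not.

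The labels of HTS-3 mouse 3 disagree. Its title and source name give 8 h and its description gives 16 h, and it was kept by its title. Over all genes tested, its log2 values correlated with those of the other 8 h HTS-3 mice at r from 0.952 to 0.976, and with the 16 h HTS-3 mice at r from 0.884 to 0.955, as a description. Clock genes, whose RNA cycles over the day, differ widely between the times. Dbp read 9026 in this mouse, against 7477 to 9508 in the 8 h vehicle mice and 103 to 147 in the 16 h HTS-3 mice. Arntl read 6.77, against 7.48 to 15.9 in 8 h vehicle and 258 to 420 in 16 h HTS-3 mice. On these genes its values lay with the 8 h livers, and leading results are given with and without it. Hepatocyte markers were high in all 6 livers, with albumin (Alb) at 78839, 81234 and 90147 in vehicle and 75057, 80552 and 69832 in HTS-3 mice. Of 13 hepatocyte markers tested none passed limma's test (2 at an unadjusted p under 0.05), and their median log2 change was -0.11. No pair among the 37 single-dose arrays held identical values. The small number of arrays sets the limit of precision here.

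Few genes passed the test for HTS-3 at 8 h. By limma with Benjamini-Hochberg adjustment, 80 of 9137 genes (0.876%) passed an adjusted p of 0.05 against vehicle, of which 29 (0.317%) rose and 51 (0.558%) fell. Without adjustment 1017 genes were under a p of 0.05. Falls were the larger changes, from 0.37 to 5.44 on the log2 scale with a median of -1.55, and 39 of 51 were 2-fold or more. Rises ran from 0.61 to 2.65 with a median of 1.40, and 23 of 29 were 2-fold or more. All genes tested had a median of 0.01, and 52.1% were above vehicle. For 50 of the falls and 28 of the rises the values of the 3 HTS-3 mice did not overlap those of the 3 vehicle mice, which held for 12.5% of all genes (5.86% below and 6.67% above vehicle). The falls and the rises differed in how far they rested on single mice. Leaving out each of the 6 mice in turn, 21 falls passed every time, while 2 rises did, Pclaf and Saa2. Without HTS-3 mouse 3, 112 genes were called, 76 higher and 36 lower, and 48 of the 80 were among them. Without HTS-3 mouse 1, 3 genes were called higher and 33 lower. Without HTS-3 mouse 2, 61 were called higher and 89 lower. Fitted on the 6 compared arrays alone, none of the 29 rises and 6 of the 51 falls passed. In all, 44 genes were called without vehicle mouse 2 and 48 without vehicle mouse 3. Where a called gene had another probe set with a group mean of 32 or more, its sign was the same in 16 of 16 cases for falls (11 at an unadjusted p under 0.05) and 10 of 10 for rises (8).

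The largest change of all was the near loss of Afdn RNA. Afdn encodes afadin, a scaffold that ties nectin adhesion molecules to the actin cytoskeleton at cell junctions. It read 485, 643 and 805 in the vehicle mice and 15, 20.2 and 10.2 in the HTS-3 mice. Every HTS-3 value lay under an intensity of 32, the limit used here for a dim signal, far below the lowest vehicle value. The fitted log2 change was -5.44 ± 0.31 (SE, adjusted p 5.26e-13). With values under 32 set to 32, which turns a fold into a lower limit, Afdn was at least 19.7-fold lower. TS-2 livers read 499 to 597 and NTS-1 livers 516 to 632, close to vehicle. HTS-3 was lower than TS-2 by a log2 difference of -5.22 ± 0.29 (adjusted p 2.62e-13) and lower than NTS-1 by -5.26 ± 0.31 (adjusted p 6.33e-13). Without HTS-3 mouse 3 the change against vehicle was -5.18.

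Among 25 tested genes of adherens and tight junctions, Afdn and Tjp3 fell, none rose, and the median was -0.16, beside 0.01 for all genes. For 5 of the 25 the HTS-3 values lay wholly below vehicle and for 0 wholly above, beside 5.86% and 6.67% of all genes. Tjp3, a zonula occludens scaffold of tight junctions, read 181, 177 and 166 in vehicle and 44.1, 82.6 and 15.2 in HTS-3 mice. The groups did not overlap, and the log2 change was -2.20 ± 0.43 (adjusted p 0.00757). That call was lost without HTS-3 mouse 3, at -1.53 with an adjusted p of 0.0508. TS-2 livers read 32.8 to 87 for Tjp3, overlapping the HTS-3 range, and the HTS-3 minus TS-2 difference was -0.71 (95% interval -1.53 to 0.12). The partners of afadin and the cores of the junctions did not pass the test, with E-cadherin (Cdh1) at 0.12, beta-catenin (Ctnnb1) at -0.05 and nectin genes Nectin2 at 0.22 and Nectin3 at -0.17.

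The falls are given here by what their proteins do, as a grouping made after the calls were seen and not as a tested theme. The first act in transcription or on chromatin. Kmt2c, a histone lysine methyltransferase that acts at enhancers, read 56.1, 92.8 and 115 in vehicle and 7.34, 7.9 and 10.5 in HTS-3 mice. Med27, a subunit of the Mediator complex that links transcription factors to RNA polymerase, read 85.6, 101 and 113 against 15.9, 9.27 and 14.9. For both genes all HTS-3 values were dim. Kmt2c was lower by a log2 change of -3.32 (adjusted p 7.97e-07, at least 2.64-fold). Med27 was lower by -2.93 (adjusted p 5.31e-07, at least 3.1-fold). Another Kmt2c probe set, close to the dim limit in all 3 vehicle mice, differed by -0.35 at an unadjusted p of 0.11.

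Elf1, a transcription factor of the ETS family, read 311, 350 and 394 in vehicle and 85.6, 52.8 and 23.8 in HTS-3 mice. HTS-3 mouse 3 was lowest and mouse 1 highest, all under the vehicle range. The change was -2.88 ± 0.31 (adjusted p 7.97e-07), and -2.38 without HTS-3 mouse 3. That mouse was under the limit, so Elf1 was at least 6.67-fold lower. NTS-1 livers read 554 to 587, above vehicle, and HTS-3 lay below them by -3.59. Zfp385b, a zinc finger gene, read 310, 237 and 292 against 34.4, 34.4 and 49.9. Its change was -2.83 ± 0.41 (adjusted p 0.000152, 7.13-fold). Further factors were chosen after their values were seen, since they kept the call without any one mouse. Atf2, a basic leucine zipper factor that stress kinases activate, read 1245, 1174 and 1425 in vehicle and 415, 383 and 401 in HTS-3 mice. The 3 HTS-3 mice lay close together at this gene, and the change was -1.68 ± 0.27 (adjusted p 0.000589, 3.2-fold). Tcf12, a basic helix-loop-helix factor, changed by -1.74 (adjusted p 0.00368), with vehicle at 342, 372 and 501 and HTS-3 at 125, 123 and 111.

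Pde9a, a phosphodiesterase that breaks down cyclic GMP, read 342, 347 and 265 in vehicle and 23.6, 45.3 and 36.7 in HTS-3 mice. The groups lay far apart, with a log2 change of -3.21 ± 0.52 (adjusted p 0.000589). HTS-3 mouse 1 was under the limit of 32, so Pde9a was at least 8.38-fold lower. TS-2 livers read 66 to 192 and NTS-1 livers 102 to 195, between the HTS-3 and vehicle values, and HTS-3 was lower than TS-2 by -2.08 (adjusted p 0.0395) and than NTS-1 by -2.13 (adjusted p 0.0314). Plcb4, a phospholipase C that answers G protein coupled receptors, read 145, 201 and 179 against 51.5, 47.1 and 9.6. It was at least 4.07-fold lower (log2 change -2.60 ± 0.40, adjusted p 0.000376), and the change was -1.82 without HTS-3 mouse 3, the lowest mouse. Fyn, a Src family tyrosine kinase, read 131, 129 and 112 against 32.8, 67.6 and 13.7. Its change was -1.99 (adjusted p 0.0254), and the call held in 1 of 6 fits with a mouse left out, with adjusted p up to 0.144 without HTS-3 mouse 3. Dock4, an activator of small GTPases, split the HTS-3 mice, at 42.4, 41.2 and 164 against 177, 177 and 211 in vehicle. HTS-3 mouse 3 was here near the vehicle range. The change was -1.51 (adjusted p 0.00815), -2.16 without HTS-3 mouse 3, and -1.19 with an adjusted p of 0.104 without HTS-3 mouse 1.

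Rabgap1l, a GTPase-activating protein for Rab proteins of vesicle traffic, read 411, 461 and 577 in vehicle and 45.8, 105 and 117 in HTS-3 mice. The change was -2.53 ± 0.30 (adjusted p 5.82e-06, 5.79-fold). Shpk, the sedoheptulose kinase of the pentose phosphate pathway, read 391, 324 and 360 against 67.5, 127 and 34. HTS-3 mouse 2 was the least and mouse 3 the most reduced, and the change was -2.43 ± 0.30 (adjusted p 1.09e-05, 5.39-fold). B4galt1, a Golgi galactosyltransferase that builds glycan chains, read 421, 650 and 614 against 148, 140 and 139. Its HTS-3 values were nearly alike, and the change was -1.96 ± 0.33 (adjusted p 0.00128, 3.88-fold). Dip2c changed by -2.21 ± 0.42 (adjusted p 0.00517), from 150, 225 and 233 to 55.3, 56.1 and 25.7. Emcn, the endomucin of vessel walls, read 86.5, 87.5 and 88.5 against 10.7, 13.4 and 28.9. It was the 1 gene of 13 tested sinusoidal endothelial markers to pass, while the list's median was 0.15. Emcn changed by -2.45 (adjusted p 0.0133, at least 2.73-fold). The adjusted p was 0.106 when HTS-3 mouse 1 was left out and 0.051 when vehicle mouse 2 was. Stab2 at -0.08 and Lyve1 at 0.42, scavenger and hyaluronan receptors of the same cells, did not pass.

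A further 4 falls, named after their values were seen because no single mouse decided them, show the same separation of the groups. Enox2, a cell-surface oxidase gene, read 656, 754 and 495 in vehicle and 157, 130 and 270 in HTS-3 mice, a change of -1.83 (adjusted p 1e-05). Aasdh read 282, 316 and 289 against 81.2, 82.3 and 77.7, a change of -1.88 (adjusted p 8.1e-05). Dcaf1, a substrate receptor of a cullin ubiquitin ligase, read 175, 201 and 222 against 44.2, 50.6 and 71, a change of -1.87 (adjusted p 0.00405). Fermt2, a kindlin that activates integrins, was the brightest of them, at 6424, 5738 and 7280 against 1941, 3191 and 2389, a change of -1.39 (adjusted p 0.00191). For Ythdc2, called lower but dim in vehicle and HTS-3 alike, a fold cannot be stated.

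**Figure D1:**
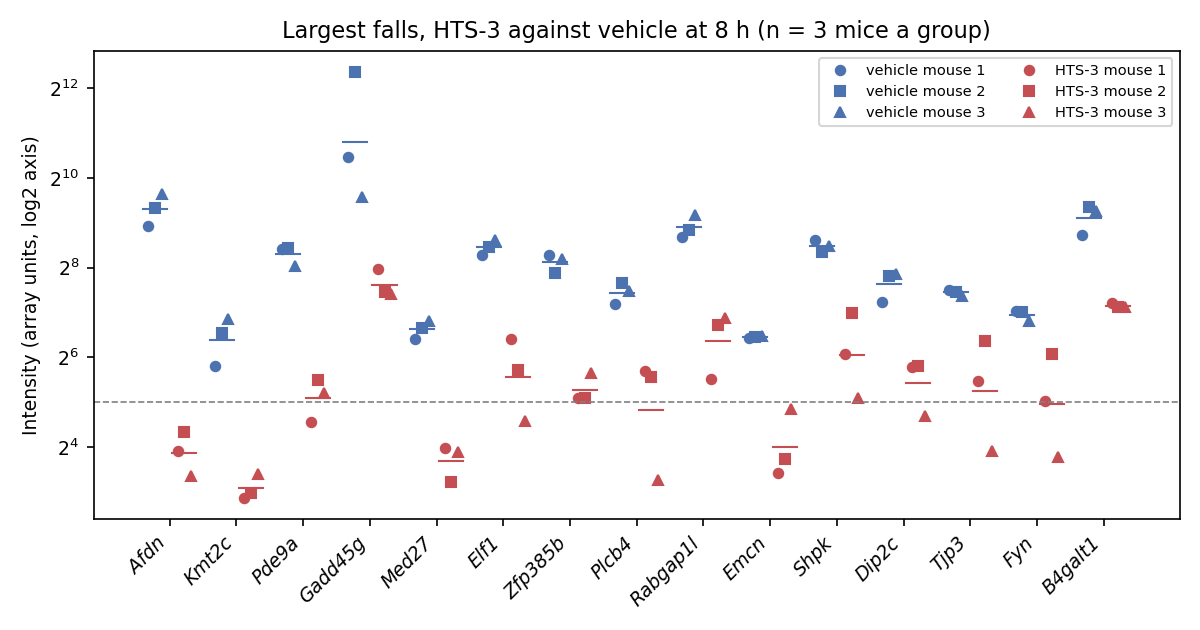
Intensity of the 15 genes with the largest falls in each of the 3 vehicle and 3 HTS-3 mice at 8 h, on a log2 axis, with a bar at each group's mean and a dashed line at the dim limit of 32. The 2 groups do not overlap at any of these genes, and for Afdn, Kmt2c, Med27 and Emcn all 3 HTS-3 mice lie under the line.

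For the fall of Gadd45g the TS-2 livers read about as low, and for Tjp3, given above, they overlapped the HTS-3 range. Gadd45g, a stress-inducible growth arrest gene, read 1413, 5265 and 765 in vehicle and 250, 175 and 169 in HTS-3 mice. The vehicle mice differed widely among themselves, and the HTS-3 mice lay under all of them. The change was -3.20 ± 0.63 (adjusted p 0.00815, 9.17-fold), and -2.42 with an adjusted p of 0.0878 without vehicle mouse 2. TS-2 livers read 150 to 331, a change of -2.93 from vehicle that did not pass (adjusted p 0.28), and NTS-1 livers read 718 to 1384. HTS-3 minus TS-2 was -0.27 with a 95% interval from -1.48 to 0.94, which leaves room for a difference in either direction. HTS-3 minus NTS-1 was -2.45 (adjusted p 0.0491). Gadd45g was the 1 call among 16 tested immediate early genes. Their median was -0.43, -0.12 without vehicle mouse 2, -0.21 without HTS-3 mouse 3, -0.66 without vehicle mouse 1 and -0.76 without HTS-3 mouse 1. Klf10, an early growth response factor of that list, read 490, 352 and 476 against 181, 173 and 119 and did not pass (-1.49, adjusted p 0.14). Socs3, a feedback inhibitor of cytokine signalling from the acute phase list, read 1483, 1869 and 1292 against 540, 291 and 247 and did not pass either (-2.18, adjusted p 0.103). For both genes the groups did not overlap.

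The direct comparisons with the other gapmers used the same 3 HTS-3 arrays, so they share those arrays with the comparison against vehicle. Against TS-2, 46 of 9137 genes (0.503%) passed, 45 lower in HTS-3 (0.493%) and 1 higher (0.0109%). Against NTS-1, 106 (1.16%) passed, 98 lower (1.07%) and 8 higher (0.0876%). The 51 genes that fell against vehicle had a median difference of -1.40 to TS-2 and -1.46 to NTS-1. In TS-2 and NTS-1 mice the same genes had medians of -0.15 and -0.20 against the shared vehicle arrays. The 29 genes that rose had a median difference of 0.80 to TS-2 and 0.57 to NTS-1, and medians of 0.62 in TS-2 and 0.76 in NTS-1 mice against vehicle. Against vehicle itself, TS-2 had no call by limma at 8 h (0.0%), with 387 genes under an unadjusted p of 0.05, and NTS-1 had 81 (0.887%), of which 80 were higher (0.876%) and 1 lower (0.0109%).

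The genes that fell were long. Genomic length, from the first to the last base of the gene in the GRCm38.p6 annotation of RefSeq, had a median of 86.8 kb for the 50 falls with a length, 13.2 kb for the 29 rises and 22.8 kb for all genes tested. Of the falls 22 (44%) spanned 100 kb or more, beside 0 of the rises and 11% of all genes. The share of genes that fell was larger in each longer class, from 0.0434% under 10 kb to 0.156% at 10 to 25 kb, 0.463% at 25 to 50 kb, 1.07% at 50 to 100 kb, 1.29% at 100 to 200 kb and 4.29% (13 of 303) at 200 kb or more. The 13 were Rabgap1l (574 kb), Dock1 (503 kb), Bcas3 (473 kb), Zfp385b (407 kb), Dock4 (401 kb), Dip2c (392 kb), Msi2 (379 kb), Arl15 (363 kb), Plcb4 (356 kb), Rptor (297 kb), Enox2 (279 kb), Tcf12 (268 kb) and Kmt2c (227 kb). Afdn spans 145 kb, while Shpk (25.4 kb) is near the median of all genes, and Tjp3 (18.4 kb) and Gadd45g (1.8 kb) are below it. The order of the middle classes did not hold in every fit with 1 mouse left out. Without vehicle mouse 2 the share was 0.411% at 25 to 50 kb and 0.382% at 50 to 100 kb. Without vehicle mouse 3 it was 0.611% at 50 to 100 kb and 0.572% at 100 to 200 kb. The class of 200 kb or more had the largest share in each of these fits.

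The shift was not limited to called genes. The 303 genes of 200 kb or more had a median log2 change of -0.40 against vehicle, -0.43 against TS-2 and -0.38 against NTS-1, and 84.2% of them lay below vehicle, beside 47.8% of all genes. TS-2 and NTS-1 themselves had a median of 0.00 and -0.01 for these genes against vehicle. For each mouse, the median difference of this class from the vehicle mean, less the mouse's own median over all genes, was -0.36, -0.25 and -0.62 in the 3 HTS-3 mice and -0.10, -0.01 and 0.11 in the 3 vehicle mice. All HTS-3 mice lay below all vehicle mice, and mouse 3 was lowest. Without HTS-3 mouse 3 the class median was -0.24 beside 0.09 for all genes, and 11 of the 303 (3.63%) were called lower. Without HTS-3 mouse 2 it was -0.50 and 26 (8.58%) were called. The log2 ratio of the 3' to the 5' probe set of actin (Actb), a measure of RNA integrity, was 1.58, 1.69 and 1.39 in vehicle and 1.35, 1.47 and 1.69 in HTS-3 mice. HTS-3 mouse 3 had the highest ratio and the lowest class median of its group, and the part of RNA integrity in the shift was not tested. With the ratio as a covariate, a setting chosen after seeing the data, 77 genes fell with a median length of 97.6 kb.

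**Figure D2:**
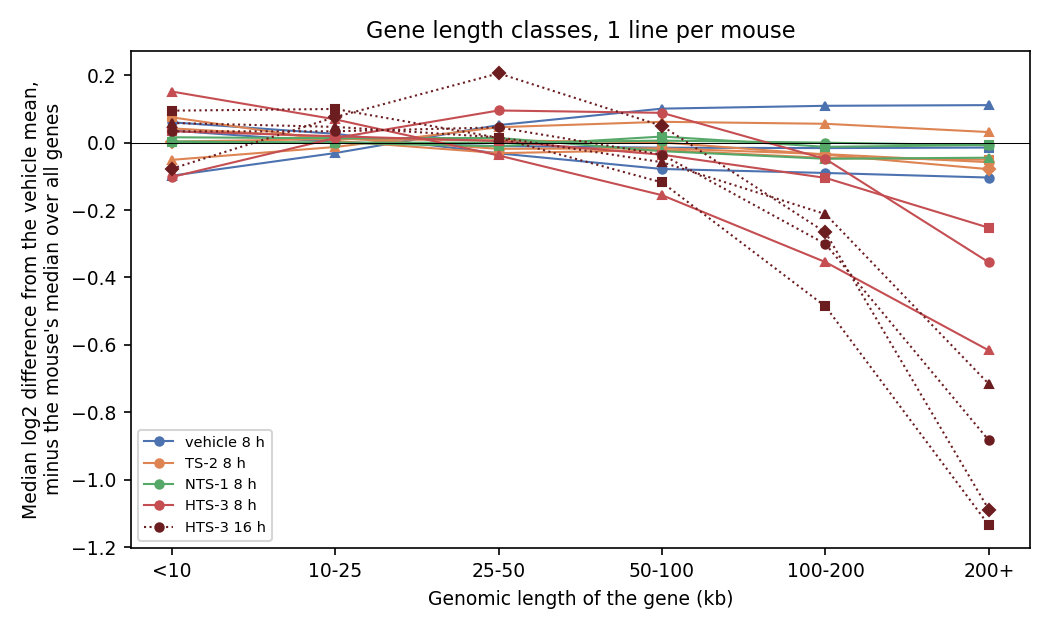
Median log2 difference from the mean of the vehicle mice of the same time, less the mouse's median over all genes, for 6 classes of genomic length in kb, with 1 line per mouse. At 200 kb or more the 3 HTS-3 mice of 8 h lie at -0.36, -0.25 and -0.62 and those of 16 h lower still, while the vehicle, TS-2 and NTS-1 mice of 8 h lie between -0.10 and 0.11.

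The rises are given in sets made after the calls were seen, not as tested themes, and some called rises belong to none of them. Serum amyloid A genes were among the rises. They encode acute phase proteins that the liver secretes in inflammation, and Saa1 and Saa2 are near-identical copies, so the array may split their signals imperfectly. Saa2 read 2133, 1801 and 1683 in vehicle and 7244, 14428 and 5710 in HTS-3 mice. HTS-3 mouse 2 was highest, and no HTS-3 value reached down to vehicle. The change was 2.18 ± 0.43 (adjusted p 0.00815, 4.52-fold), and 2.46 without HTS-3 mouse 3. Saa1 read 8140, 7207 and 5849 against 23557, 41746 and 20729, a change of 1.96 ± 0.45 (adjusted p 0.0254, 3.9-fold). Saa3, which macrophages and other cells also make, read 591, 527 and 270 against 2723, 610 and 3131, a change of 1.98 ± 0.46 (adjusted p 0.0287, 3.96-fold). HTS-3 mouse 2, the highest for Saa1 and Saa2, was the lowest for Saa3. The Saa1 call was lost without any mouse but HTS-3 mouse 3 (adjusted p up to 0.119, without vehicle mouse 3). For Saa3 the adjusted p was 0.0645 when vehicle mouse 2 was left out, 0.168 for vehicle mouse 3, 0.166 for HTS-3 mouse 1 and 0.136 for HTS-3 mouse 3.

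No other acute phase gene passed the test. Of 24 tested, the 3 Saa genes rose and none fell, and the median was 0.03. In this list 5 lay wholly above vehicle and 1 wholly below, beside 6.67% and 5.86% of all genes. The fibrinogen chains Fga, Fgb and Fgg were at -0.19, -0.17 and -0.15, haptoglobin (Hp) at 0.12 and hepcidin (Hamp) at -0.10. Orm2, an acid glycoprotein gene, read 104, 117 and 88.4 against 370, 1462 and 203. Its groups did not overlap, but the change of 2.22 did not pass the test (adjusted p 0.191). HTS-3 minus TS-2 was 1.61 for Saa2 (95% interval 0.78 to 2.44, adjusted p 0.0707), and HTS-3 minus NTS-1 was 1.45 (0.57 to 2.34, adjusted p 0.13).

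A second set of rises was in genes of DNA replication and the cell cycle. Pclaf encodes a small protein that binds the sliding clamp of replicating DNA. It read 22.1, 24.7 and 22.3 in vehicle, all dim, and 124, 91.3 and 46.2 in HTS-3 mice. HTS-3 mouse 1 was highest and mouse 3 lowest, each above the limit. Pclaf was at least 2.52-fold higher (log2 change 1.81 ± 0.29, adjusted p 0.000589), and 2.21 without HTS-3 mouse 3. It was also higher than in TS-2 mice by 1.65 (adjusted p 0.000871) and than in NTS-1 mice by 1.59 (adjusted p 0.00143), and was the 1 gene called higher against TS-2. Cdk1, the kinase that drives entry into mitosis, read 65, 78.3 and 63.2 against 213, 193 and 144. The change was 1.40 ± 0.28 (adjusted p 0.00889, 2.64-fold), and the call was lost without HTS-3 mouse 1 (1.28, adjusted p 0.0793). Ccne2, a cyclin of the start of S phase, read 16.3, 19 and 11.2 against 46.6, 32.3 and 54. Ccne2 rose at least 1.35-fold (log2 change 1.52, adjusted p 0.0238). The call held in 2 of 6 fits with a mouse left out, with an adjusted p of up to 0.135 without vehicle mouse 3.

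Of 17 tested genes of replication entry all were above vehicle, Pclaf and Ccne2 passed the test, and the median was 0.57. For 6 the HTS-3 values lay wholly above vehicle, as for 6.67% of all genes. Subunits of the replicative helicase showed how uneven the mice were, with Mcm5 at 84.9, 107 and 98.4 in vehicle and 681, 114 and 208 in HTS-3 mice (1.39, adjusted p 0.286). Rrm2, which makes deoxynucleotides, read 62, 96.4 and 91.8 against 424, 99 and 170 (1.23, adjusted p 0.204). At both genes mouse 1 was far above the others. Leaving that mouse out gave a list median of 0.32, and leaving mouse 3 out gave 1.00. Of 24 genes of G2 and mitosis 5 were bright enough to test, and Cdk1 was the one that passed. Cdkn1a, the p53 target that stops the cell cycle, read 36.4, 21.4 and 21.4 against 41.4, 38.2 and 39 and did not pass (0.63, adjusted p 0.812). None of 13 tested p53 targets passed or reached an unadjusted p of 0.05, and their median was 0.10.

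Promoters of the 5 genes that carry these rises are given as RefSeq has them in GRCm38.p6, from 250 bases before to 50 bases after the start of transcription, on the strand of the gene. Capitals mark matches to motifs searched on both strands. These were TTNNGCAA for C/EBP in the Saa promoters, and TTTCNCGC for E2F and CCAAT for the CCAAT box in those of Pclaf and Cdk1. The first is for factors of the acute phase response, the others for factors of cell cycle genes. Another motif, TTCNNNGAA for STAT factors, was searched in the Saa promoters and had no match there. The promoters lie at chr7:46742931-46743230 (minus strand, Saa1), chr7:46751583-46751882 (plus, Saa2), chr7:46715627-46715926 (minus, Saa3), chr9:65890073-65890372 (plus, Pclaf) and chr10:69352863-69353162 (minus, Cdk1).
Saa1: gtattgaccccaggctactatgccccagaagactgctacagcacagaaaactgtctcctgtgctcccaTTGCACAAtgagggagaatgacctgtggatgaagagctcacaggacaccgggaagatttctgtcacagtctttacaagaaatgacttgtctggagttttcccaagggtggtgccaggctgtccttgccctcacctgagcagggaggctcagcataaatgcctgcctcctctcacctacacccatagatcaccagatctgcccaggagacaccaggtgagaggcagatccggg
Saa2: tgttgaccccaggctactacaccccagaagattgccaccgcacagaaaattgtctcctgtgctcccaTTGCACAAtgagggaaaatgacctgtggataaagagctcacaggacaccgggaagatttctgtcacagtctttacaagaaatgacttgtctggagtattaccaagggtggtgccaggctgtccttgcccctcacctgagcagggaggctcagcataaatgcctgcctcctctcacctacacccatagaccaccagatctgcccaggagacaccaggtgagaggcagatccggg
Saa3: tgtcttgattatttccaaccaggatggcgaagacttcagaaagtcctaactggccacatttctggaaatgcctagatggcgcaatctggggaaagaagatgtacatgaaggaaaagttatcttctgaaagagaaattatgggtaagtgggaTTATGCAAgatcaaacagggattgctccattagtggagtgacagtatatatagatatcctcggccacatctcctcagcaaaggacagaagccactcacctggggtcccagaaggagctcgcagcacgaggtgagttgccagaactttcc
Pclaf: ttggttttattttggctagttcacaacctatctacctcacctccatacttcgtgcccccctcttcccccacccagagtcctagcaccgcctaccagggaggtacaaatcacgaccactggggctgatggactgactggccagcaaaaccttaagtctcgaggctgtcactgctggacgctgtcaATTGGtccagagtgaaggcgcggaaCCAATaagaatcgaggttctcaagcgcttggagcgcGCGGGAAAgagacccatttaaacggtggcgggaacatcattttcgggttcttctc
Cdk1: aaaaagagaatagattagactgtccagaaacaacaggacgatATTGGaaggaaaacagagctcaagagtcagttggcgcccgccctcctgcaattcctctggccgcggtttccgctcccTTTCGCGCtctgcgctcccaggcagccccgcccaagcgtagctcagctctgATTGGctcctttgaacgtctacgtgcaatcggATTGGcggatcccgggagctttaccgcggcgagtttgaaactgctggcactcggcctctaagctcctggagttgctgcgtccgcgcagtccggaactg
The Saa1 and Saa2 promoters were 95.3% identical (287 of 301 aligned columns). Both hold a C/EBP match on the minus strand, 182 and 183 bases before the start, and Saa3 holds one on the plus strand 99 bases before it. Pclaf and Cdk1 each hold an E2F match, at 5 and 131 bases before the start, and 2 and 3 CCAAT matches. Over 32851 mouse promoters of this length, 10.8% hold the C/EBP letters, 2.09% the E2F letters, 8.30% the STAT letters and 37.4% CCAAT. In the 26 promoters found for 25 of the 29 rises, 4 (15.4%) held C/EBP, 4 (15.4%) STAT, 2 (7.69%) E2F and 14 (53.8%) CCAAT letters. In the 62 promoters found for 45 of the 51 falls, the counts were 3 (4.84%), 4 (6.45%), 0 and 23 (37.1%). No match shows binding.

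The third set of rises was in genes of macrophages and antigen presentation. Ms4a6b, a membrane protein gene of myeloid and lymphoid cells, read 26.7, 33.9 and 33.9 in vehicle and 234, 142 and 157 in HTS-3 mice. The groups lay apart, with at least 5.22-fold more in HTS-3 (log2 change 2.47 ± 0.50, adjusted p 0.00889), and the call was lost without HTS-3 mouse 1 (2.25, adjusted p 0.0793). NTS-1 livers read 344 to 775, above all HTS-3 livers. Fpr2, a formyl peptide receptor of phagocytes, read 171, 114 and 49.1 against 1388, 378 and 270 (2.40 ± 0.56, adjusted p 0.0285, 5.29-fold). Fcgr1, the high-affinity receptor for IgG, read 11.3, 33 and 26.9 against 164, 55 and 114 (2.23 ± 0.49, adjusted p 0.0207, at least 3.13-fold). The chains of an MHC class II molecule, which presents antigen, rose as a pair. H2-Ab1 read 474, 233 and 264 against 6317, 647 and 926 (2.34 ± 0.56, adjusted p 0.0347), and H2-Aa read 680, 274 and 391 against 5743, 1222 and 1053 (2.22 ± 0.55, adjusted p 0.0448). HTS-3 mouse 1 was highest at each of these 5 genes, and the calls were lost without it, with adjusted p from 0.0793 for Ms4a6b to 0.316 for H2-Aa. Without it the change was 1.33 for H2-Ab1 and 1.44 for H2-Aa. Other single mice also decided calls. Fpr2, H2-Ab1 and H2-Aa were lost without vehicle mouse 2 (adjusted p 0.0713, 0.14 and 0.203) or vehicle mouse 3 (0.177, 0.132 and 0.132), and Fcgr1 without vehicle mouse 1 (0.148) or HTS-3 mouse 3 (0.0509).

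All 11 tested Kupffer cell markers and all 16 tested markers of monocytes and macrophages were higher than vehicle, with medians of 0.96 and 0.97 beside 0.01 for all genes. Fcgr1 was the 1 marker that passed the test. For 8 and 10 markers the HTS-3 values lay wholly above vehicle, as for 6.67% of all genes. C1qb, a complement chain that Kupffer cells make, read 3019, 3041 and 2854 against 9575, 4852 and 6408 (1.17, adjusted p 0.056). Ctss, a lysosomal protease of antigen presenting cells, changed by 1.05 (adjusted p 0.057), and Clec4f, a lectin that marks Kupffer cells, read 1834, 2193 and 2581 against 4530, 3275 and 3387 (0.76, adjusted p 0.115). The mean log2 intensity over the Kupffer markers was 9.80, 9.93 and 9.91 in vehicle and 11.28, 10.79 and 10.32 in HTS-3 mice. For the monocyte and macrophage markers it was 8.83, 9.09 and 8.95 against 10.53, 9.68 and 9.52. Mouse 1 of the HTS-3 group was highest in both lists, and the medians without it were 0.61 and 0.65. Against the same vehicle arrays the Kupffer and the monocyte and macrophage lists had medians of 0.17 and 0.41 in TS-2 and 0.53 and 0.75 in NTS-1 mice. The medians of HTS-3 minus TS-2 were 0.53 and 0.55, and those of HTS-3 minus NTS-1 were 0.42 and 0.18. In RNA of whole liver, more or fewer cells of a type and more or less RNA per cell cannot be told apart. Of 13 neutrophil markers 2 were bright enough to test, S100a8 at 2.29 and S100a9 at 1.51, and neither passed (adjusted p 0.38 and 0.74). Of 17 lymphocyte markers 4 were tested, with a median of -0.02.

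**Figure D3:**
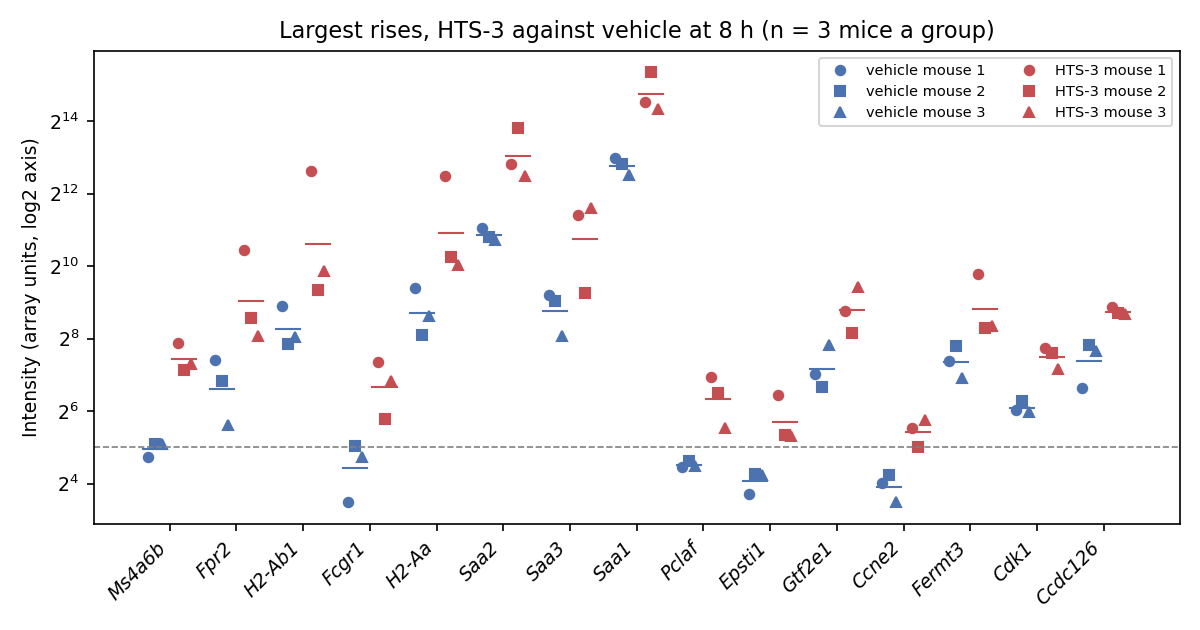
Intensity of the 15 genes with the largest rises and groups that do not overlap, in each of the 3 vehicle and 3 HTS-3 mice at 8 h, on a log2 axis, with a bar at each group's mean and a dashed line at the dim limit of 32. HTS-3 mouse 1 is the highest mouse at Ms4a6b, Fpr2, H2-Ab1, Fcgr1 and H2-Aa, and mouse 2 at Saa1 and Saa2.

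Type I interferon switches on interferon-stimulated genes in most cells. Those of the list used here lay mostly above vehicle, without passing the test. Of 24 tested, 23 were higher, 16 were under an unadjusted p of 0.05, none passed after adjustment, and the median was 1.30. For 8 the HTS-3 values lay wholly above vehicle, beside 6.67% of all genes. Usp18, a feedback protease of the interferon receptor, read 51.3, 178 and 201 in vehicle and 1746, 397 and 265 in HTS-3 mice (2.22 ± 0.62, adjusted p 0.079). Ifit2, a translation inhibitor, read 45.6, 48.5 and 49.7 against 685, 157 and 49.7 (1.87, adjusted p 0.056). The chemokine Cxcl10 read 139, 194 and 169 against 5953, 147 and 284 (1.92, adjusted p 0.274). HTS-3 mouse 1 was high at all 3 genes, while mouse 3 was close to vehicle at Ifit2. The mean log2 intensity of the list was 6.62, 7.02 and 7.29 in vehicle and 9.34, 7.76 and 7.40 in HTS-3 mice. Its median was 0.53 when HTS-3 mouse 1 was left out and 1.70 when mouse 3 was. Epsti1, an interferon-responsive gene outside the list, did pass the test and was at least 1.63-fold higher. That call was lost without HTS-3 mouse 1 (adjusted p 0.216) or vehicle mouse 1 (0.153), 2 (0.0717) or 3 (0.0776). Tnfsf10, the death ligand TRAIL, passed the test with a fitted log2 change of 2.65 (adjusted p 0.0448), although its groups overlapped. All 3 vehicle mice and 1 HTS-3 mouse were under the limit of 32, and with such values set to 32 it was at least 4.94-fold higher. It is named here after its values were seen, at 29.4, 18 and 27.1 against 901, 28.9 and 137, and the call was lost in 5 of 6 fits with a mouse left out, with a change of 1.37 and an adjusted p of 0.327 without HTS-3 mouse 1. Without HTS-3 mouse 2 the change was 3.85. The other 4 were those without vehicle mouse 1 (0.0916), vehicle mouse 2 (0.164), vehicle mouse 3 (0.113) or HTS-3 mouse 3 (0.0657).

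NTS-1 livers held far more of these RNAs than HTS-3 livers. Usp18 read 7513 to 9270 in NTS-1 and 142 to 368 in TS-2 mice. HTS-3 was lower than NTS-1 by -3.84 ± 0.62 (adjusted p 0.000222), and its difference from TS-2 was 1.32 (95% interval 0.14 to 2.50, adjusted p 0.646). Over the list the median HTS-3 minus NTS-1 difference was -2.75 and 15 of 24 genes passed, all lower in HTS-3. Against the shared vehicle mice the list's median was 3.90 in NTS-1, where 23 genes passed, and 0.18 in TS-2, where none did. Among the calls with the smallest p, Gm9706 (-3.95) and Phf11d (-3.94) were lower than in NTS-1, and Taf2, a subunit of the general transcription factor TFIID, was higher (1.31, adjusted p 0.0142).

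Genes of cholesterol synthesis were all below vehicle, and none passed the test. The 17 tested enzymes had a median of -0.93 beside 0.01 for all genes, and 11 were under an unadjusted p of 0.05. For 2 the HTS-3 values lay wholly below vehicle, as for 5.86% of all genes. Mvd, which makes the isoprenoid building block, read 407, 191 and 317 in vehicle and 34.3, 237 and 114 in HTS-3 mice (-1.58 ± 0.50, adjusted p 0.14). Hmgcs1, which opens the pathway, read 16090, 9664 and 20548 against 3095, 11499 and 6209 (-1.28 ± 0.46, adjusted p 0.193). Mvk, the mevalonate kinase, read 644, 362 and 543 against 148, 425 and 216 (-1.08, adjusted p 0.116). HTS-3 mouse 1 was lowest at each of these genes, and mouse 2 lay within the vehicle range. The mean log2 intensity of the list was 12.17, 11.50 and 12.36 in vehicle and 10.37, 11.84 and 11.13 in HTS-3 mice, and vehicle mouse 2 was the lowest of its group. Without HTS-3 mouse 1, the lowest mouse for this list and the highest for the macrophage, interferon and replication lists, the median was -0.60. The medians in TS-2 and NTS-1 mice against the same vehicle mice were -0.20 and -0.30.

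Other functions of the liver held no called gene at this time. By limma, no gene passed among 17 cytochrome P450 genes (median -0.05, 0 at an unadjusted p under 0.05), 20 genes of bile acid synthesis and transport (-0.05, 1) or 15 of the urea cycle and amino acid breakdown (0.02, 2). The same held for 24 genes of coagulation and complement (-0.04, 0) and 17 hepatocyte transcription factors (0.05, 4). Stress pathways had no call either, among 18 chaperones of the endoplasmic reticulum (-0.18, 2 at an unadjusted p under 0.05), 14 genes of the integrated stress response (0.21, 2), 14 NRF2 targets (0.05, 2), 11 heat shock proteins (0.38, 2) and 15 genes of cell death (0.10, 6). Of all 9137 genes, 1017 were under that unadjusted p, a smaller share than among the cell death genes. Of those 15 genes, 5 lay wholly above vehicle and 0 wholly below, beside 6.67% and 5.86% of all genes. The enzymes and decay factors that act on gapmer-bound RNA did not pass either, with RNase H1 (Rnaseh1) at -0.15 and a list median of -0.03 over 15 genes (2 at an unadjusted p under 0.05). Proteins known to bind such oligonucleotides and the paraspeckle RNAs had a median of 0.04 over 20 genes (2 at an unadjusted p under 0.05), with Neat1 at -0.93 (adjusted p 0.49) and Malat1 at -0.25 (adjusted p 0.65). Of 704 list entries, 521 were tested, 129 were too dim and 54 had no probe set of their own.

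**Figure D4:**
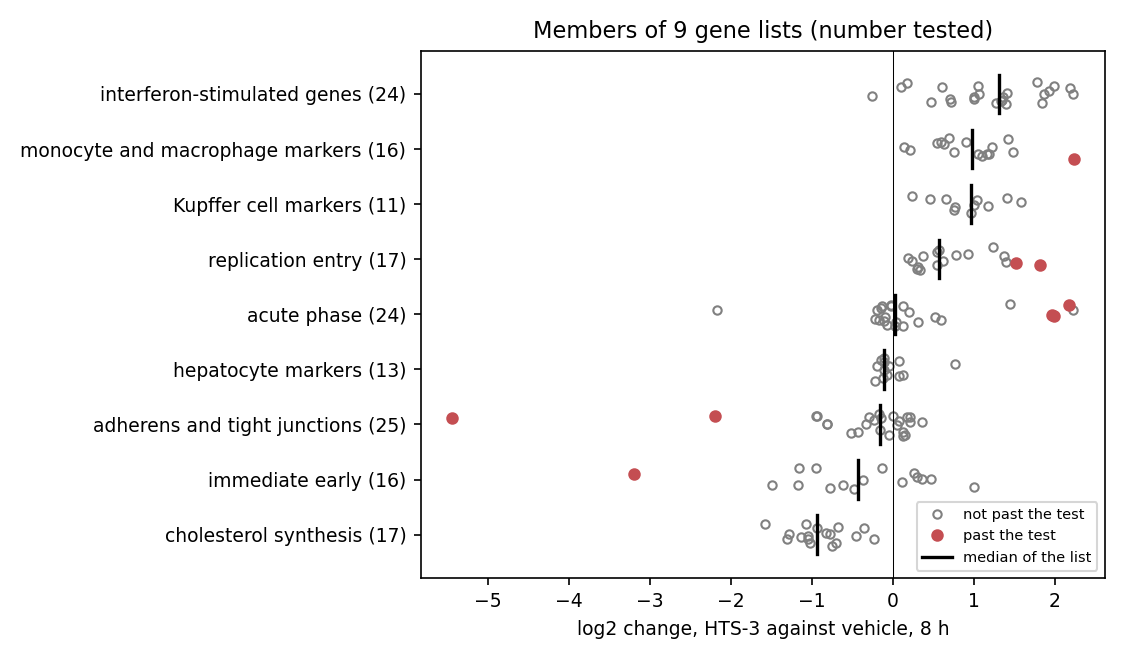
Log2 change of each tested member of 9 gene lists, HTS-3 against vehicle at 8 h (3 mice a group), with red points past the test and a bar at each list's median. The interferon, macrophage, Kupffer and replication lists lie to the right of 0, apart from 1 interferon gene, and the 17 cholesterol genes to its left, with few red points.

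At 16 h, in other HTS-3 and vehicle mice, 1536 genes passed (16.8%), 734 higher (8.03%) and 802 lower (8.78%). Without HTS-3 mouse 4 of 16 h 1001 passed, and without vehicle mouse 1 of 16 h 1017. The falls of 8 h were found again. Of the 51, 48 lay below vehicle at 16 h and 42 passed, which is 82.4% of the 8 h falls and 5.24% of the 16 h falls, and none passed as a rise. Their median was -2.46 at 16 h beside -1.55 at 8 h. Afdn read 7.98 to 8.2 in the HTS-3 mice of 16 h and 460 to 771 in their vehicle mice, a change of -6.19 (adjusted p 2.8e-15). At 16 h most HTS-3 values of the leading falls were under the limit of 32, so their fitted changes are not exact sizes. With such values set to 32 the median of the falls was -1.40 at 8 h and -1.92 at 16 h. Afdn was then at least 18.4-fold lower at 16 h. Elf1 had a fitted change of -2.88 at 8 h and -4.56 at 16 h (at least 14.2-fold lower), and the difference between the times was -1.68 (adjusted p 0.0182). Dock4 had -1.51 at 8 h and -5.18 at 16 h, a difference of -3.67 (adjusted p 3.81e-06). All 4 HTS-3 mice of 16 h read 4.56 to 6.82, at or near the lowest value of the table, and with the limit Dock4 was 2.84-fold lower at 8 h and at least 5.72-fold lower at 16 h. B4galt1 had -1.96 at 8 h and -4.58 at 16 h (difference -2.63, adjusted p 0.00118), at least 16.9-fold lower at 16 h. Gadd45g went the other way, from -3.20 to -0.27, but the difference of 2.92 did not pass (adjusted p 0.0579).

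The rises of 8 h were mostly not kept. Of the 29, 11 lay above vehicle at 16 h and 7 passed, which is 24.1% of the 8 h rises and 0.954% of the 16 h rises, and 7 others passed as falls. Their median was -0.31 at 16 h, and -0.31 with the limit. Among the rises still above vehicle at 16 h were Ttc30a1 (log2 change 1.24), Gtf2e1 (1.12), Parp16 (0.90) and Rcan1 (0.80). These belong to none of the sets of rises described above and are named after their values were seen. Ms4a6b had a fitted change of 2.47 at 8 h and -1.86 at 16 h, where all 4 HTS-3 mice were under the limit, a difference of -4.33 (adjusted p 0.00043). At 16 h the Kupffer markers had a median of -0.87, with 6 of 11 called lower, and the monocyte and macrophage markers a median of -0.83, with 6 of 16 called lower. Saa2 read 3445 to 4106 in the HTS-3 mice of 16 h, while the vehicle mice of 16 h ranged from 2229 to 14522. The difference between the times was -2.69 (adjusted p 0.00894), with HTS-3 mice lower at 16 h than at 8 h and vehicle mice of 16 h that varied widely. Pclaf, at 21 to 22.3 in HTS-3 and 22.3 to 60.4 in vehicle mice, was no longer above vehicle. The 17 tested genes of replication entry as a list still had a median of 0.59 at 16 h, with 5 called higher and 0 lower. Over all genes the effect differed between the times for 294 (3.22%), 43 more positive (0.471%) and 251 more negative (2.75%) at 16 h, among them 14 of the 8 h falls and 16 of the 8 h rises. Without HTS-3 mouse 3 of 16 h the effect differed for 511 genes. Genes of 200 kb or more had a median of -0.89 at 16 h beside -0.40 at 8 h, and their value per mouse ran from -1.14 to -0.72.

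**Figure D5:**
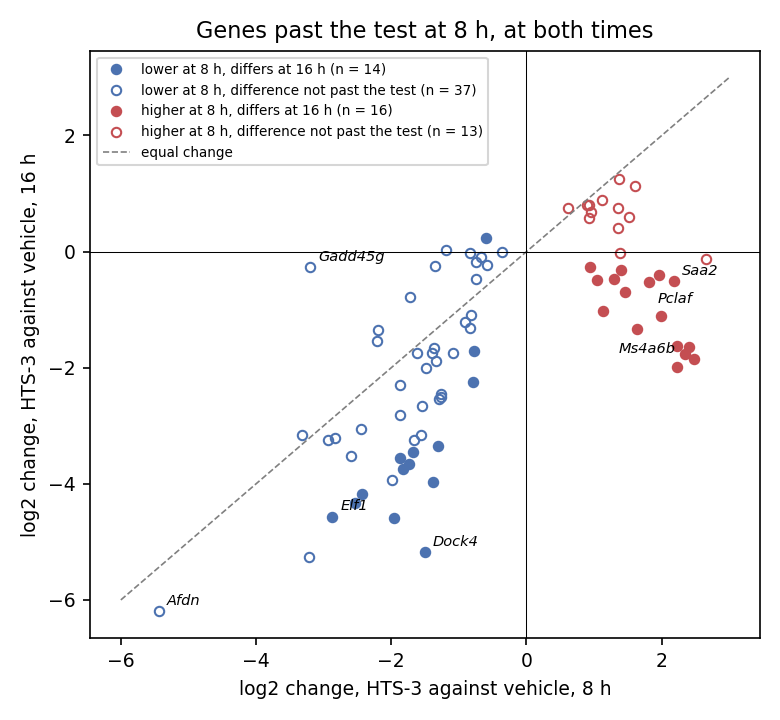
Log2 change against vehicle at 8 h (horizontal, 3 mice a group) and at 16 h (vertical, 4 HTS-3 and 3 vehicle mice, other animals) for the 80 genes that passed at 8 h, with filled points where the difference between the times passed and a dashed line of equal change. The falls lie mainly below the line, with 42 of 51 past the test at 16 h, and most rises lie under 0 at 16 h.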

How the data were processed

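Liver RNA of single mice was hybridised to Affymetrix-type arrays. The deposited intensities are linear values of a table of 45101 probe sets by 56 arrays, which the authors made with RMA, per the submitters' processing notes, with version and settings not given in the sources used here. Values were converted to log2. Genes were named through the platform's gene table (34958 probe sets with 1 gene, 932 with several, 9211 with none; 34754 matched to RefSeq by gene ID). For each gene the probe set with the highest mean was used, and 9137 of 18194 genes with an intensity of 32 or more on at least 3 of the 37 single-dose arrays were tested. The 19 arrays of a 2-week study were not used, since their lowest values (6.10 to 6.92) differ from the common 4.56 of the single-dose arrays.

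A group-means model over the 11 single-dose groups was fitted with limma 3.58.1 (R 4.3.3; lmFit, eBayes), with Benjamini-Hochberg adjustment over all genes at 0.05; tables were handled in Python 3.11.15 with pandas 2.3.3 and promoters aligned with biopython 1.88. In data simulated for HTS-3 against vehicle at 8 h (9137 genes), 66% of 100 genes changed 2-fold and 95% of 100 changed 4-fold were recovered, with 13 false calls. The changed genes were drawn from those with a mean intensity of 64 or more in 8 h vehicle. Named genes are the 15 largest rises and falls with groups apart, list members by size or p, the 5 smallest p in each direction of the other contrasts and a short panel; others are marked, and list members given as examples of a role were chosen after their values were seen. The members and lists were chosen with earlier results of these data known. Alternatives covered the probe set, filters (none, 64), quantile normalization, an offset of 16, array weights, the arrays fitted, the variance model, the label of HTS-3 mouse 3, a replicate block and single mice left out.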

Additional observations from a re-analysis of the deposited data

Results flagged for a closer look

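Effects of HTS-3 that differed between 16 h and 8 h by the limma test of the difference included these, as log2 change at 16 h minus that at 8 h, in different mice. Among genes that rose at 8 h the difference was -4.33 for Ms4a6b, -4.22 for Fcgr1, -4.10 for H2-Ab1, -4.05 for Fpr2 and -3.84 for H2-Aa. It was -3.10 for Saa3, -2.69 for Saa2 and -2.38 for Saa1, the acute phase genes. It was -2.97 for Epsti1, an interferon-responsive gene, -2.33 for Pclaf, -2.14 for Fermt3, an integrin activator of blood cells, and -1.71 for Cdk1. Among genes that fell at 8 h the fall was deeper at 16 h by -3.67 for Dock4, -2.63 for B4galt1, -1.79 for Rabgap1l, -1.75 for Shpk and -1.68 for Elf1. For these 5 genes at least 3 of 4 HTS-3 mice of 16 h were under the limit of 32, so the sizes are not exact.

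In 7 of 64 groups of 4 mice checked, 1 mouse stood apart from the others by Dixon's test at 95%, which chance gives in about 1 of 20. In the HTS-3 mice of 16 h these were a mouse at 8.2 for Afdn, at 6.82 for Dock4, at 18.0 for Fcgr1 and at 9.09 for Fyn, all dim intensities. In the TS-2 mice of 8 h they were a mouse at 23.4 for Epsti1, at 66.0 for Pde9a and at 696 for Rabgap1l. The groups of 3 that make up the 8 h comparison are too small for this check.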

How the results depend on the processing

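The 80 calls of HTS-3 against vehicle at 8 h became 134 after quantile normalization, 123 with the Actb ratio as a covariate (chosen after seeing the data), 21 with array weights and 7 with the 6 compared arrays alone (0 higher, 7 lower, 6 of them shared with the 80); with 1 mouse left out they ranged from 36 (without HTS-3 mouse 1) to 150 (without HTS-3 mouse 2), with 44 and 48 without vehicle mouse 2 and 3. With HTS-3 mouse 3 moved to 16 h, as its description says, they were 67 (45 higher, 22 lower; 30 shared with the 80). The 46 calls against TS-2 became 18 with array weights, 110 with the 8 h arrays alone and 70 with the replicate block, and ranged from 33 to 58 with 1 mouse left out. The 106 against NTS-1 became 41, 36 with the compared groups alone and 61 with the third mouse moved, and ranged from 74 to 127. The 1536 calls at 16 h became 2330 with array weights, 255 with the compared groups alone, 964 with the mouse moved and 2374 with the Actb ratio, and ranged from 1001 (without HTS-3 mouse 4 of 16 h) to 1847, with 1017 without vehicle mouse 1 of 16 h. The 294 differences between the times became 149, 9, 112 and 591 under these settings, and ranged from 206 to 511 (without HTS-3 mouse 3 of 16 h). The median length of falls (86.8 kb) was 186.8 kb with array weights and 74.29 to 115.1 kb with 1 mouse left out. The cause of these shifts was not tested, beyond the fewer arrays some settings hold. Replicate numbers of vehicle and HTS-3 mice did not pair (r of deviations -0.32, 0.01 and -0.48), and the replicate block gave 95 calls at 8 h, 76 of them shared with the 80.

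Of 32 named genes past the test, none changed sign under the 18 settings, and 135 of 567 fits lost the call. Of 113 named genes not past it, values changed sign in 16 fits. With 1 mouse left out they ranged from -0.074 (without HTS-3 mouse 1) to 1.59 for Samhd1, -0.017 (HTS-3 mouse 1) to 0.66 for Ecm1, -0.022 (HTS-3 mouse 1) to 1.29 for C2, -0.32 to 0.22 (vehicle mouse 2) for Cd79b, -0.044 (vehicle mouse 2) to 1.58 for Alas2, -0.76 to 0.0059 (vehicle mouse 3) for Ccnd1, -0.20 (vehicle mouse 1) to 0.42 for Cdk20, -0.20 to 0.22 (HTS-3 mouse 3) for Stx2 and -0.26 to 0.10 (HTS-3 mouse 3) for Actb. With HTS-3 mouse 3 moved, Cd79b was at 0.091, Stx2 at 0.22 and Actb at 0.10, and with array weights Gzma was at -0.047. With 3 mice a group, equal spread in every group and all 37 single-dose arrays in the fit, 66% of simulated 2-fold changes were recovered. Recovery with a wider spread among HTS-3 mice, or at genes with a vehicle mean under 64, was not tested. Dim genes have only lower limits.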
